A study of Mus musculus with 6 samples.

Results

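Heat shock protein and chaperone genes were examined in microglia sorted from mice with or without overexpression of PGC-1α. The set held 10 genes, listed by name: Hspa1a, Hspa1b, Hspa8, Hsp90aa1, Hsp90ab1, Dnajb1, Hsph1, Hspb1, Hspd1 and Hspe1. A probe was assigned to one of them when the transcript accession printed on the array matched that gene symbol. This gave 19 of the 56605 probes on the array. Of these 19 probes, 18 were well above background on every array of at least 1 group and were tested, and each of the 10 genes had a tested probe. Most genes had 1 or 2 probes, whereas Hspa8 had 4 and Hsph1 and Hspe1 had 3 each.

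The arrays came from C57BL/6 mice labelled male and aged 10 weeks, with 3 arrays of PGC-1αf/f microglia and 3 of mPGC-1α microglia. Both groups carried the PGC-1αf/f allele, in which loxP sites control PGC-1α together with eGFP. The mPGC-1α mice also carried Cx3cr1-CreERT2, a Cre recombinase placed in the Cx3cr1 locus that acts only after tamoxifen, and the PGC-1αf/f controls were littermates. Tamoxifen was given before the experiments according to the methods, which do not say whether the control mice of these arrays received it. Cells were enriched with magnetic beads against P2RY12, a surface receptor of microglia. It was not stated whether an array held 1 mouse or several, so the p-values below measure the spread between arrays. The comparison asks whether PGC-1α changes resting microglia, that is, microglia from brain without stroke.

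Heat shock proteins are chaperones, which bind unfolded or newly made proteins and keep them from clumping. HSP70 proteins bind and release short stretches of a client protein in a cycle driven by ATP. J-domain proteins such as DNAJB1 deliver the clients, nucleotide exchange factors such as HSPH1 reset the cycle, and HSP90 proteins act later on signalling proteins. Small heat shock proteins hold clients without ATP, and HSPD1 with its lid HSPE1 folds proteins inside mitochondria. In each family some genes are expressed all the time, and others are induced by heat, by other protein stress or by tissue dissociation. The inducible genes are switched on by HSF1, which binds heat shock elements, inverted repeats of the unit GAA near the gene start. In brain tissue that has been dissociated, heat shock genes and immediate-early genes are known to be induced together in microglia.

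The regions before the start of Hspa1a, Hspa1b, Hspb1 and Hspe1 are shown for their heat shock elements. Whether the elements bear on how far the signal of a gene moved was not tested. RefSeq sequences (build GRCm38.p6) were available for 7 of the 10 genes, and there was none for Hspa8, Hsp90aa1 or Hsp90ab1 in the table used here. Printed 5′ to 3′ are the 250 bases before the start of Hspa1a, Hspa1b and Hspb1, and 30 bases around the elements before Hspe1. Capitals mark each pair of facing units, GAANNTTC or TTCNNGAA.
Hspa1a (chr17:34972157-34972406, minus strand): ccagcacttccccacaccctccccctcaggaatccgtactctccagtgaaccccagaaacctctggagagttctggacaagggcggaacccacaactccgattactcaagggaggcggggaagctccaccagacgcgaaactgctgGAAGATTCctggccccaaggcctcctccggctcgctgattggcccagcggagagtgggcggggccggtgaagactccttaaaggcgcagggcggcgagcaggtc
Hspa1b (chr17:34959239-34959488, minus strand): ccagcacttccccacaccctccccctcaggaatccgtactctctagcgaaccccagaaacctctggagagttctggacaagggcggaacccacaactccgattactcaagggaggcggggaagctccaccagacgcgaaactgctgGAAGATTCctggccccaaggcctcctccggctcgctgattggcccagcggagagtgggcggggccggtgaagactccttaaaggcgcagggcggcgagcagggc
Hspb1 (chr5:135887669-135887918, plus strand): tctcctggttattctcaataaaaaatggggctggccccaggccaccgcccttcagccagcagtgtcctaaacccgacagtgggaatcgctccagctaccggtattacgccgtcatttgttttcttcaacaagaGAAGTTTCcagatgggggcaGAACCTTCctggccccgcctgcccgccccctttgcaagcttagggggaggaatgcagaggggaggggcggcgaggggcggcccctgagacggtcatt
Hspe1 (chr1:55088053-55088082, plus strand): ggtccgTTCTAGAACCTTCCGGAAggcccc
Hspa1a and Hspa1b each had 1 pair, which began at position -104 relative to the start in both. Over these 250 bases the genes were identical at 247 positions and differed at 3. Hspb1 had 2 separate pairs. The Hspe1 run of 18 bases holds 2 overlapping matches to the longer form of the element, 3 facing units in a row, and the same run lies before a start of Hspd1, which is transcribed in the opposite direction. Among 32851 RefSeq windows of 300 bases, searched on both strands, 7.86% held GAANNTTC, 8.52% held TTCNNGAA and 0.603% held the longer form, and the short forms are contained in the longer one. In the windows of Dnajb1 none of these forms was found, and in those of Hsph1 the longer form lay after the start. TCAAGGTCA, an element bound by ERRα, a transcription factor that works with PGC-1α, is present in 0.423% of all windows. It was found in none of the windows of the 7 members. Only this exact sequence was searched, so sites that differ from it could have been missed.

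Before the results, several facts about the arrays bear on how they are read. Between 27025 and 30272 of the 59305 non-control spots were well above background, and no spot was saturated. PGC-1αf/f replicate 3 stood apart, since it correlated with the other arrays at 0.928 on average and the rest at 0.962 to 0.972. The mPGC-1α replicate 3 array went against its label: the 4 Y-linked genes Ddx3y, Eif2s3y, Kdm5d and Uty were well above background on the other 5 arrays and not on this one. Xist was well above background on PGC-1αf/f replicate 2 and on mPGC-1α replicates 2 and 3, all labelled male. Values with single arrays left out are given for each heat shock gene. A single slide held all arrays, the controls in row 1 and mPGC-1α in row 2, so that slide row and group cannot be told apart. Ppargc1a, the gene meant to be overexpressed, was 0.80 higher on the log2 scale in mPGC-1α (SE 0.35, limma adjusted p = 0.306), and its groups overlapped. Cx3cr1, whose locus holds the Cre, was lower by a log2 difference of -0.51 (adjusted p = 0.194).

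In mPGC-1α microglia, 9 of the 10 heat shock genes had a higher mean signal than in PGC-1αf/f microglia and 1, Dnajb1, had a lower one, although Hspa8, Hsph1 and Hspd1 also turned lower when arrays were scaled by a median shift. That shift moved the median of all probes to -0.14, so the counts of higher and lower genes given here hold for scaling by the 75th percentile. The largest differences were those of the stress-inducible HSP70 genes Hspa1a and Hspa1b and of Hspb1. The place of Hspb1 rested on PGC-1αf/f replicate 3. Without that array Hspb1 was at 0.43, below Hsp90aa1 at 0.56 with its outlier spot left out. The probes of Hspa1a and Hspa1b were well above background throughout mPGC-1α but not throughout PGC-1αf/f, so they entered the test only through the group in which they are high, and the counts below that include them do not support a direction. None of the 10 passed an adjusted p of 0.05 in the main limma fit. An unadjusted p under 0.05 was found for 3, namely Hspa1a, Hspa1b and Hsp90aa1. For Hsp90aa1 this held only without a bright control spot that the scanner software marked as an outlier. With slide column as a random block in limma, Hspa1a passed the adjusted threshold (adjusted p = 0.0386). With array weights Hspa1a (adjusted p = 0.0163) and Hspa1b (adjusted p = 0.035) passed it. In the main fit 0.0611% of all 13100 genes tested passed the adjusted threshold (0.0792% of all 25257 probes). There 7.92% of the genes were higher with an unadjusted p under 0.05. A second rule, a difference of at least 2-fold with an unadjusted p under 0.05, was met by Hspa1a alone, against 2.4% of all genes in the higher direction, 0.496% in the lower and 2.89% in either. When all 6 arrays had to be above background, Hspa1a and Hspa1b dropped out, no member was past 2-fold, and the median of the remaining 8 was 0.14. The median difference over all 10 genes was 0.18 on the log2 scale (0.11 without PGC-1αf/f replicate 3 and 0.29 without mPGC-1α replicate 3), beside 0.023 over all tested genes, of which 53.2% lay above 0. Among the 9 genes with a value on every array, the groups did not overlap and mPGC-1α was higher for 3, and for none was it lower, these being Hspa1a, Hspa1b and Hspb1, of which the last has 1 low control array. The shares over all such genes were 12.2% higher and 10.8% lower.

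**Figure D1:**
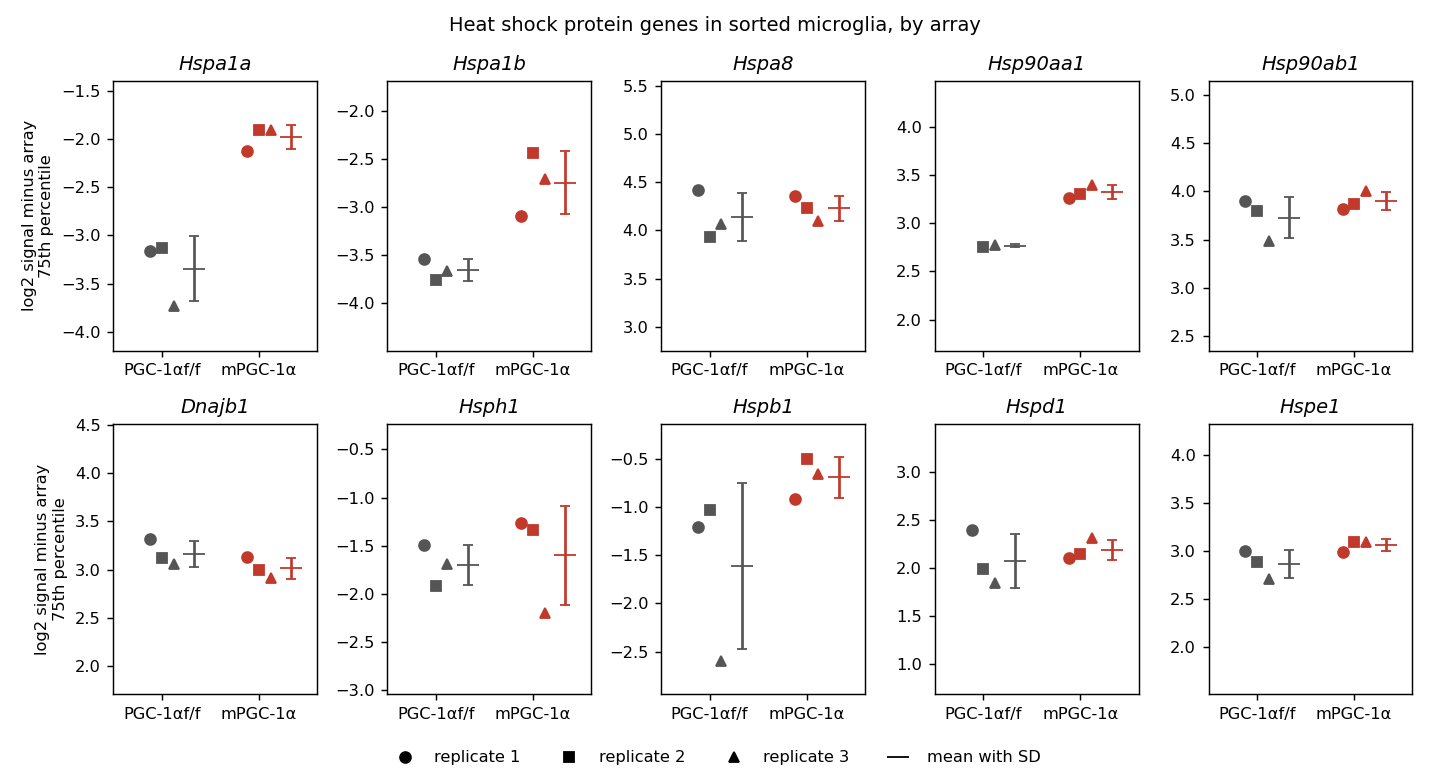
Level of each heat shock gene on each array (vertical axis, log2 signal minus the 75th percentile of the array, the same span of values in every panel), with PGC-1αf/f in grey, mPGC-1α in red, a symbol per replicate and the group mean with its SD. Hspa1a, Hspa1b and Hspb1 are the 3 genes with 6 values whose groups lie apart, and Hspb1 has 1 PGC-1αf/f array far below the others.

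Levels are given here as log2 signal minus the 75th percentile of the same array, so that 0 stands for the signal of a fairly bright probe. Hspa1a encodes one of the nearly identical inducible HSP70 proteins. Its level was -3.16, -3.13 and -3.74 in PGC-1αf/f and -2.12, -1.91 and -1.91 in mPGC-1α. All mPGC-1α arrays lay above all PGC-1αf/f arrays, and the spread was wider among the controls. The means were -3.34 ± 0.34 (SD, n = 3) and -1.98 ± 0.12 (SD, n = 3), a difference of 1.36 (SE 0.20, 95% interval 0.90 to 1.83). With normexp background correction and quantile scaling the difference was 0.83, short of 2-fold (adjusted p = 0.11). The limma p was 0.000228 unadjusted and 0.074 after adjustment over all probes. The probe was dim in the controls, where 2 of 3 arrays were well above background, as were all 3 mPGC-1α arrays. The deposited intensities before scaling were 113, 178 and 160 in PGC-1αf/f and 294, 445 and 391 in mPGC-1α, whereas the lowest intensity well above background was 113 to 119 across arrays.

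Hspa1b encodes the other copy. The levels were -3.54, -3.76 and -3.67 in PGC-1αf/f and -3.09, -2.44 and -2.71 in mPGC-1α, again without overlap. The difference was 0.91 (SE 0.19, 95% interval 0.45 to 1.36), with an unadjusted p of 0.00213 and an adjusted p of 0.13, and with normexp it was 0.56 (adjusted p = 0.184). This probe was well above background on 1 PGC-1αf/f array and on all 3 mPGC-1α arrays. The genes are close copies of each other, and whether the probes tell their transcripts apart was not analysed here, so these are not certain to be 2 separate measurements. On the slide columns that held an array of each group, the difference of Hspa1a was 1.04 in column 1 and 1.22 in column 2, and that of Hspa1b was 0.44 and 1.32. Without PGC-1αf/f replicate 3, Hspa1a differed by 1.17 (adjusted p = 0.0649) and Hspa1b by 0.90 (adjusted p = 0.176). Without mPGC-1α replicate 3 the values were 1.33 (adjusted p = 0.239) and 0.89 (adjusted p = 0.307). With any 1 of the 6 arrays left out, Hspa1a stayed between 1.17 and 1.47 and Hspa1b between 0.75 and 1.08.

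Hspa8 encodes the constitutive HSP70 of the cytosol, which is abundant in resting cells. The level at its brightest probe was 4.41, 3.93 and 4.06 in PGC-1αf/f and 4.36, 4.23 and 4.10 in mPGC-1α. The groups overlapped, and the difference was 0.092 (SE 0.17, 95% interval -0.31 to 0.49, adjusted p = 0.802). The other 3 probes gave differences of 0.18, 0.27 and 0.17, each with overlapping groups. All 4 probes were therefore higher in mPGC-1α by less than the spread between arrays, with the sign of the brightest one turning under 3 other scalings. Within each array, the ratio of Hspa1a to Hspa8 was also compared, centred on its PGC-1αf/f mean. It was -0.10, 0.42 and -0.32 in PGC-1αf/f and 1.00, 1.34 and 1.47 in mPGC-1α on the log2 scale. These ratios are described without a test, since Hspa1a was near background in the controls.

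Hsp90aa1 encodes the inducible form of cytosolic HSP90 and Hsp90ab1 the constitutive form. For Hsp90aa1 the PGC-1αf/f replicate 1 spot was marked as an outlier by the scanner software and left out. The levels on the remaining 5 arrays were 2.76 and 2.78 in PGC-1αf/f and 3.26, 3.31 and 3.40 in mPGC-1α. The difference was 0.55 (SE 0.14, 95% interval 0.20 to 0.91), the groups lay apart, and the adjusted p was 0.192. The spot left out stood at 3.59, above all 3 mPGC-1α arrays. With outlier spots kept, an alternative added after seeing the data, the groups overlapped and the difference was 0.28 (SE 0.24, 95% interval -0.29 to 0.85, adjusted p = 0.566), so that the separation of the groups rests on removing this spot. Without scaling between arrays the difference over the 5 arrays was 0.24 (adjusted p = 1). A second Hsp90aa1 probe had a usable spot on 1 array of each group, at 2.39 in PGC-1αf/f and 2.65 in mPGC-1α, and with outlier spots kept it differed by 0.20 (adjusted p = 0.64) with overlapping groups. For Hsp90ab1 the levels were 3.90, 3.79 and 3.49 in PGC-1αf/f and 3.82, 3.87 and 4.004 in mPGC-1α. Its groups overlapped, with a difference of 0.17 (SE 0.15, 95% interval -0.20 to 0.54, adjusted p = 0.591). The intervals of Hsp90aa1 and Hsp90ab1 overlapped with the outlier spot left out and with it kept. Hsp90aa1 and Hsp90ab1 were bright probes, well above background on every array.

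Dnajb1, the J-domain partner that brings clients to HSP70 and is itself strongly heat inducible, was the 1 member with a lower mean. Its levels were 3.31, 3.13 and 3.06 in PGC-1αf/f and 3.13, 3.00 and 2.91 in mPGC-1α. These ranges overlapped, and the difference of -0.15 (SE 0.14, 95% interval -0.48 to 0.18, adjusted p = 0.592) put it at the 26.2nd percentile of all genes. Hsph1 encodes HSP110, the exchange factor of HSP70. The probe with 6 values stood at -1.50, -1.92 and -1.69 in PGC-1αf/f and -1.26, -1.34 and -2.19 in mPGC-1α, with mPGC-1α replicate 3 the lowest of all arrays. The difference there was 0.10 (SE 0.27, adjusted p = 0.869), and that at a second Hsph1 probe, without mPGC-1α replicate 1, was 0.31 (adjusted p = 0.563). The remaining Hsph1 probe stayed near background on every array. Without mPGC-1α replicate 3 the difference of Hsph1 was 0.40 (adjusted p = 0.4). For both Dnajb1 and Hsph1 the groups overlapped and the 95% interval held 0. Dnajb1 stayed lower in all 19 alternative settings, whereas the sign of Hsph1 turned in 4 of 19.

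**Figure D2:**
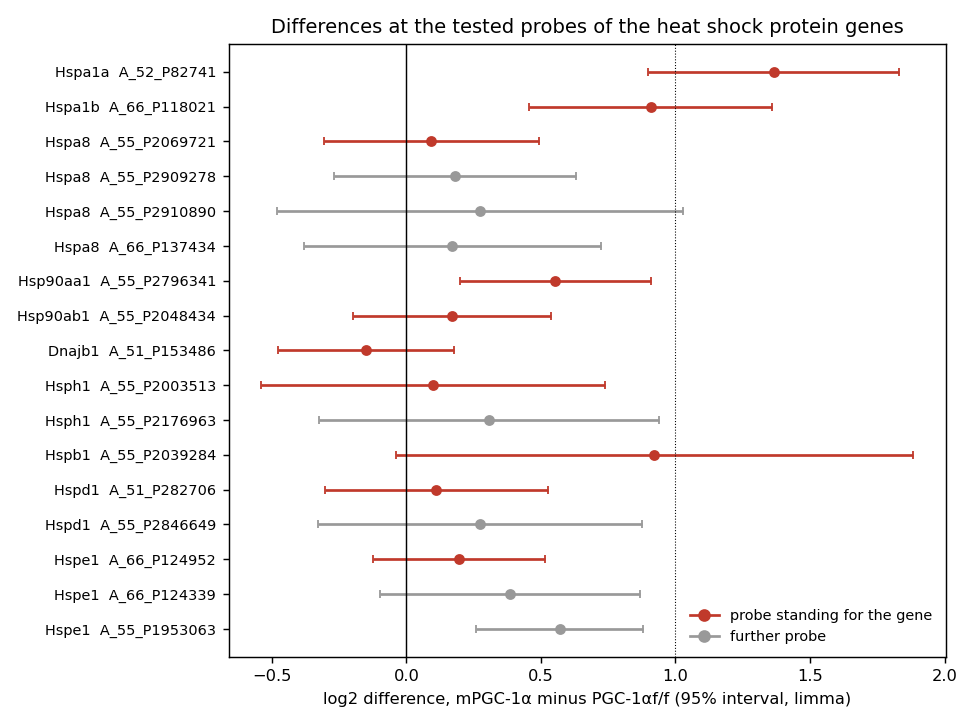
Difference between mPGC-1α and PGC-1αf/f at the tested probes of the 10 genes (horizontal axis, log2, with 95% limma intervals), with the probe standing for the gene in red, further probes in grey and a dotted line at 2-fold. The Hsp90aa1 probe measured on 1 array per group is left out, and the intervals of Hspa1a, Hspa1b, Hsp90aa1 and 1 Hspe1 probe lie above 0, that of Hsp90aa1 only while the outlier spot of PGC-1αf/f replicate 1 is left out.

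Hspb1 encodes HSP27, a small heat shock protein that is known from cells of the blood vessel wall among others. The levels were -1.20, -1.03 and -2.60 in PGC-1αf/f and -0.92, -0.50 and -0.65 in mPGC-1α. The groups lay apart, but PGC-1αf/f replicate 3 was far below the other controls. With it the difference was 0.92 (SE 0.41, 95% interval -0.040 to 1.88, adjusted p = 0.313), and without it the difference was 0.43 (adjusted p = 0.391). The difference was 0.29 in slide column 1 and 0.53 in column 2. The summed level of the neuron markers was not the lowest on that control array. The median deviation of the neuron markers from their mean over the 6 arrays was lowest there, at -0.69. Markers of several other cell types were also low on that array, while those of oligodendrocytes were highest there. Their summed levels, in units of the 75th percentile of each array, were 3.98, 3.76 and 1.52 in PGC-1αf/f and 2.79, 4.48 and 5.42 in mPGC-1α for 5 endothelial and mural genes. For 11 leukocyte genes they were 86.3, 92.6 and 21.4 in PGC-1αf/f and 93.8, 97.3 and 112 in mPGC-1α. Both sums were lowest on the array where Hspb1 was lowest, and so were those of the erythroid list (11.6), the astrocyte list (16.4) and the border macrophage list (8.97). Of the endothelial and mural list 6 of 10 genes could be tested, with a median difference of 0.39 that fell to 0.046 without PGC-1αf/f replicate 3, and Pecam1, Cdh5, Tek and Rgs5, which define these cells, were not above background throughout either group. Of the leukocyte list 12 of 16 were tested, with a median of 1.08 that became 0.24 without the same array. The part of these cells in the Hspb1 result was not tested. In such bulk samples, fewer cells of a type and less RNA per cell cannot be told apart.

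Hspd1 and Hspe1, the mitochondrial chaperonin and its lid, lie head to head in the genome and share the element printed above. Hspd1 stood at 2.39, 1.99 and 1.85 in PGC-1αf/f and 2.11, 2.15 and 2.31 in mPGC-1α, with overlap. Its difference was 0.11 (SE 0.18, adjusted p = 0.766), and 0.27 at a second probe (adjusted p = 0.592). Hspe1 stood at 3.00, 2.88 and 2.71 in PGC-1αf/f and 2.99, 3.10 and 3.10 in mPGC-1α, a difference of 0.20 (SE 0.13, adjusted p = 0.475). The probes of Hspe1 disagreed in size. The dimmest of the 3 gave -0.65, -0.83 and -0.89 in PGC-1αf/f and -0.28, -0.22 and -0.15 in mPGC-1α, without overlap, and a difference of 0.57 (SE 0.13, unadjusted p = 0.00337, adjusted p = 0.145). The remaining Hspe1 probe gave 0.39 (adjusted p = 0.37) over 5 arrays. Across the 18 tested probes of the 10 genes, 17 were higher in mPGC-1α and 1 was lower. The median difference of all tested probes was -0.0026. The 18 probes are not separate measurements, since several genes have more than 1. They include the Hsp90aa1 probe with 1 array per group and those of Hspa1a and Hspa1b, so the count does not support a direction. Of the 13 member probes with a value on every array, 4 lay apart in the higher direction, beside 11.4% of all such probes. These 4 include those of Hspa1a, Hspa1b and Hspb1.

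The smaller differences moved with single arrays. With each of the 6 arrays left out in turn, Hsp90ab1 ranged from 0.050 to 0.26, with the lowest value when PGC-1αf/f replicate 3 was absent. Hspa8 ranged from -0.0099 (without PGC-1αf/f replicate 2) to 0.23, and Hspd1 from -0.0027 (without PGC-1αf/f replicate 3) to 0.27. The sign of both therefore rested on 1 array. Hsph1 ranged from -0.068 (without mPGC-1α replicate 1) to 0.40. It was also below 0 without PGC-1αf/f replicate 2 (-0.0073) and without mPGC-1α replicate 2 (-0.029). Hspe1 stayed between 0.12 and 0.26, Dnajb1 between -0.21 and -0.077, and Hsp90aa1, with its outlier spot left out, between 0.51 and 0.58. Hspb1 ranged from 0.43 to 1.21, the extremes coming with PGC-1αf/f replicate 3 and replicate 2 absent.

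The wider chaperone network was described from lists of its other genes, which were chosen with results of these arrays known. Of 85 such genes 79 could be tested, and 46 were higher and 33 lower in mPGC-1α. None passed either call rule, and 3 in each direction had an unadjusted p under 0.05, namely Hspa2, Hspb11 and Clpp in the higher direction and Sgtb, Dnajb4 and Hspa13 in the lower. Over all genes, 7.92% were higher and 5.83% lower at that level. The median difference over these 79 genes was 0.051. For HSF1, the factor that switches on heat shock genes, and its regulators, 1 of 4 tested genes was higher, Hikeshi, which carries HSP70 into the nucleus, at 0.26 (adjusted p = 0.329). Hsf2 was the lowest at -0.20 (adjusted p = 0.511), and Hsf1 itself, named after its value was seen, differed by -0.19 (adjusted p = 0.599). The Hsf1 levels were 0.22, 0.50 and 0.84 in PGC-1αf/f and 0.27, 0.38 and 0.31 in mPGC-1α, with PGC-1αf/f replicate 3 the highest. Hsf4 was not above background.

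Among the other HSP70 genes and their cochaperones, 19 of 22 were tested, and 6 were higher and 13 lower with a median of -0.10, which became -0.027 without PGC-1αf/f replicate 3 and -0.030 without mPGC-1α replicate 3. Hspa2, an HSP70 known best from testis, had the highest difference. Its levels were -0.21, -0.41 and -0.92 in PGC-1αf/f and 0.57, 0.22 and -0.058 in mPGC-1α, without overlap, a difference of 0.76 (SE 0.24, adjusted p = 0.225). Dnajb4, a J-domain protein close to Dnajb1, was the lowest gene with 6 values. Its levels were 0.22, -0.21 and 0.21 in PGC-1αf/f and -0.27, -0.60 and -0.52 in mPGC-1α, a difference of -0.54 (SE 0.18, adjusted p = 0.231). Hspa13, measured on 5 arrays and named after its value was seen, was also lower, at -0.52 (adjusted p = 0.201). Bag3, a heat-inducible HSP70 cochaperone, and Dnaja1, a further J-domain protein, were named in the same way and differed by -0.10 (SE 0.14) and -0.00042 (SE 0.14). Hspa1l, the third HSP70 gene of the Hspa1a locus, was not above background.

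The 12 cochaperones of HSP90 were divided evenly, 6 higher and 6 lower. Stip1, which links HSP70 to HSP90, was the highest with 6 values at 0.23 (adjusted p = 0.451). Its levels were 2.41, 2.17 and 1.99 in PGC-1αf/f and 2.49, 2.44 and 2.34 in mPGC-1α, with PGC-1αf/f replicate 3 the lowest. Sgtb, a small cochaperone with tetratricopeptide repeats, stood at -1.995, -2.06 and -1.84 in PGC-1αf/f and -2.43, -2.59 and -2.81 in mPGC-1α. It lay apart in the lower direction, with a difference of -0.65 (SE 0.15, unadjusted p = 0.00365, adjusted p = 0.149). Among 6 tested small heat shock genes beside Hspb1, 5 were higher and the median was 0.36, which became 0.072 without PGC-1αf/f replicate 3. Hspb2 had the highest value, 1.07 (SE 0.45, adjusted p = 0.302), but its probe was well above background on 2 of 3 PGC-1αf/f arrays and entered the test only through mPGC-1α. Its levels of -2.18, -2.95 and -4.16 in PGC-1αf/f and -1.91, -2.03 and -2.15 in mPGC-1α again placed PGC-1αf/f replicate 3 below all others. Hspb3 was the lowest at -0.55 (adjusted p = 0.373). Its levels were 1.78, 1.68 and 2.68 in PGC-1αf/f and 1.19, 1.75 and 1.54 in mPGC-1α, with PGC-1αf/f replicate 3 above all others. Hspb11, named after its value was seen, was at 0.43 (SE 0.16, adjusted p = 0.259).

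Of the CCT chaperonin and prefoldin genes, which fold actin and tubulin, 12 of 14 were higher, with a range from -0.28 for Pfdn4 to 0.36 for Pfdn6. PGC-1αf/f replicate 3 was the highest array for Pfdn4, at -2.03, and the lowest for Pfdn6, at 1.73. The median of the list, 0.11, became 0.059 without PGC-1αf/f replicate 3 and 0.049 without mPGC-1α replicate 3. Mitochondrial chaperones and proteases other than Hspd1 and Hspe1 were higher for 7 of 12. Clpp, the proteolytic core of a mitochondrial protease, had the highest difference at 0.33 (SE 0.14, adjusted p = 0.298), and Grpel2, an exchange factor for mitochondrial HSP70, had the lowest at -0.18 (adjusted p = 0.514). In the endoplasmic reticulum, 9 of 12 tested chaperone genes were higher with a median of 0.080. Among genes with 6 values there, Creld2 was highest at 0.21 (adjusted p = 0.515) and Canx lowest at -0.066 (adjusted p = 0.825), and Hspa5, the main HSP70 of that compartment, named after its value was seen, differed by 0.084 (adjusted p = 0.807). None of these compartments had a gene past either call rule.

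**Figure D3:**
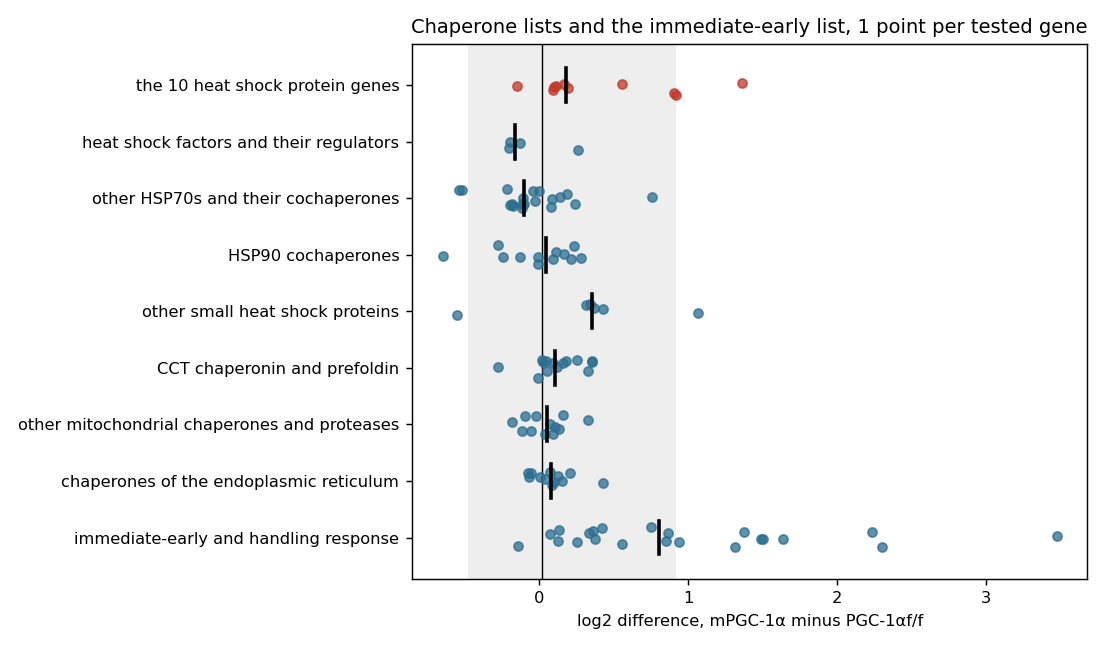
Difference between mPGC-1α and PGC-1αf/f (horizontal axis, log2) for each tested gene of the heat shock set, of 7 further chaperone lists and of the immediate-early list, with a bar at each list median, a line at the median of all 13100 genes and grey from the 5th to the 95th percentile. The chaperone lists centre between -0.16 and 0.36, while the immediate-early list centres at 0.80.

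Genes that respond within minutes to handling of tissue were measured as well, since heat shock genes are known to move with them. Of 22 tested immediate-early genes 21 were higher in mPGC-1α, 13 at an unadjusted p under 0.05 and 8 past 2-fold, with a median of 0.80. Fosb, a subunit of the AP-1 transcription factor, was higher by 3.48 (adjusted p = 0.0169), and Dusp1, a phosphatase of MAP kinases, by 2.24 (adjusted p = 0.0122). These 2 passed the adjusted threshold, which no heat shock gene did in the main fit. With the replicate number as a block, or without mPGC-1α replicate 3, no probe passed it. The summed level of 17 immediate-early genes was 60.1, 66.4 and 67.2 in PGC-1αf/f and 100.2, 106 and 115 in mPGC-1α. The sums did not overlap and were high on the same 3 arrays as Hspa1a and Hspa1b. The median of the list was 0.71 without PGC-1αf/f replicate 3 and 0.67 without mPGC-1α replicate 3. The part of such a response in the Hspa1a and Hspa1b results was not tested.

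**Figure D4:**
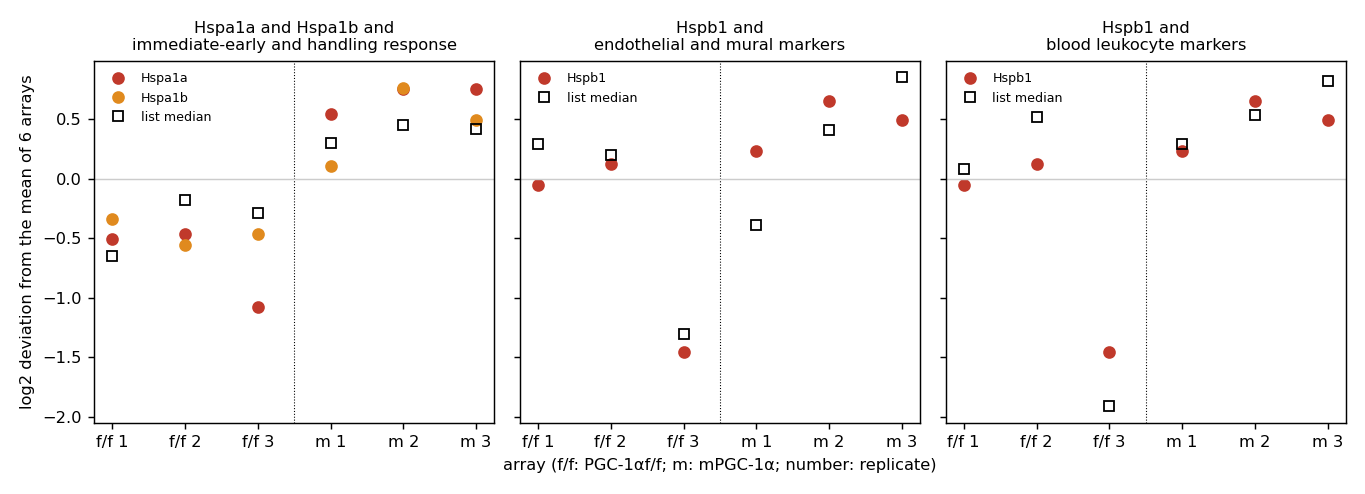
Deviation of each array from the mean of 6 arrays (vertical axis, log2) for Hspa1a and Hspa1b beside the median of the immediate-early list, and for Hspb1 beside the medians of the endothelial and mural list and of the blood leukocyte list. In the left panel the mPGC-1α arrays lie above the PGC-1αf/f arrays for both genes and the list, and in the other panels PGC-1αf/f replicate 3 is the lowest array throughout.

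All 12 listed microglia markers were above background and could be tested. Of these, 11 were lower in mPGC-1α with a median of -0.24, which became -0.14 without PGC-1αf/f replicate 3. Their summed level over 6 genes ranged from 92.4 to 106 in PGC-1αf/f and from 82.6 to 91.2 in mPGC-1α. Oligodendrocyte markers were lower for all 9 tested genes, with a median of -0.61 and a summed level of 17.9 to 23.3 in PGC-1αf/f and 11.4 to 14.5 in mPGC-1α. In each list the summed levels of the groups did not overlap, and the part of these shifts in the values of the heat shock genes was not tested.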

How the data were processed

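RNA of sorted microglia was amplified, labelled with Cy5 and hybridized to 1-colour Agilent mouse arrays. The deposited intensity of each spot was made by the authors with Agilent Feature Extraction 11.5.1.1 and is background-subtracted, and the deposited series table holds the same intensity without scaling between arrays. GeneSpring is named in the methods for normalization, and no test is given there for the arrays. The number of arrays limits the precision.

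Control spots and outlier spots were left out. The 75th percentile of each array (1012 to 2138 in intensity) was subtracted on the log2 scale, and spots of a probe were averaged. Probes well above background (at least 0.5 of their spots) on all arrays of 1 group were kept, and 25257 were fitted with limma 3.58.1 in R 4.3.3 (lmFit, eBayes, two-sided) with Benjamini-Hochberg adjustment. The model was tested on simulated data first. A gene was represented by its brightest probe with 6 values, or by its brightest tested probe where none had 6. Names came from RefSeq accessions (33767 of 56605 probes).

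The members and lists were chosen with earlier results of these data known. All members were named, and from each other chaperone list the genes past a call rule, otherwise the highest and the lowest with 6 values. Further genes are marked where named. Same-numbered arrays correlated in their deviations from the group means by 0.139, 0.127 and 0.0187, so replicate numbers were not treated as pairs. Alternatives were other scalings, backgrounds, filters, blocks, weights and each array left out. Python 3.11.15 with pandas 2.3.3, numpy 2.4.6, Biopython 1.88 and matplotlib 3.10.9 handled sequences and figures.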

Additional observations from a re-analysis of the deposited data

How the results depend on the processing

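Of the 19 alternatives run, the median difference of the 10 heat shock genes stayed between 0.051 and 0.30 on the log2 scale. No heat shock gene passed the adjusted p, except Hspa1a (0.0386) when slide column was a random block, 1 gene in all, and Hspa1a (0.0163) and Hspa1b (0.035) with array weights, 2 genes in all. Under these settings 138 and 754 probes passed. Adjusted p-values of Hspa1a ranged from 0.0163 to 0.323 over its alternatives, and those of Hspa1b from 0.035 to 0.651. The number of heat shock genes past 2-fold was 0 with normexp background, where Hspa1a differed by 0.83, and 0 when all 6 arrays had to exceed background, which removed Hspa1a and Hspa1b. It was 2 with array weights (Hspa1a and Hspa1b). Leaving out 1 array at a time gave 1 to 2, the second gene being Hspb1 without PGC-1αf/f replicate 1 or 2 and Hspa1b without mPGC-1α replicate 1. Hspb1 ranged from 0.43 to 1.21 in this way, the lowest without PGC-1αf/f replicate 3.

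Among the other chaperone genes 1, Hspb2, passed 2-fold with the unscaled table, without a filter, with the replicate block and with a robust trended fit, and 0 to 1 with 1 array left out (1 without PGC-1αf/f replicate 1). Probes past the adjusted threshold, 20 as reported, numbered 11 with quantile, median and normexp scaling, 456 in the unscaled table, 9 without a filter, 4 with the strict filter, 7 with probes averaged per gene, and 0 to 25 with 1 array left out (0 without mPGC-1α replicate 3). With the replicate number as a block 0 passed, which changed no call of a heat shock gene but removed those of Fosb and Dusp1. Probes past 2-fold, 768 as reported, numbered 1165 in the unscaled table, 1342 without a filter, 472 with the strict filter, 365 averaged per gene and 437 to 1547 with 1 array left out, the lowest without PGC-1αf/f replicate 3 and the highest without replicate 1 of that group.

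The sign of the smallest differences changed. Hspa8 became -0.029 with quantile scaling, -0.041 with a median shift and -0.10 with normexp. With the median shift Hsph1 became -0.032 and Hspd1 -0.022. That shift moved the median of all probes to -0.14 and the share of 2-fold probes that were higher from 72.9% to 54.5%. With quantile scaling the median of all probes was -0.044, and with normexp it was -0.037. Leaving out 1 array gave -0.0099 to 0.23 for Hspa8, -0.068 to 0.40 for Hsph1 and -0.0027 to 0.27 for Hspd1. With slide columns 1 and 2 alone, an alternative added after seeing the data, Hsp90ab1 became -0.0032, Hspd1 -0.064, Hspa1a 1.13 (adjusted p = 0.163) and Hspb1 0.41, while 3 probes passed the adjusted threshold and 424 passed 2-fold. With outlier spots kept, Hsp90aa1 went from 0.55 to 0.28, and 2 heat shock genes in place of 3 had an unadjusted p under 0.05. That count was also 2 with the median shift and with the strict filter. It was 4 with normexp, with the replicate block, with the robust trended fit and with probes averaged per gene. Averaging the probes took Hspe1 from 0.20 to 0.38. Normexp lowered Hspa1b to 0.56. Apart from the spot kept for Hsp90aa1, the cause of these changes was not tested. Signal near background limits Hspa1a and Hspa1b in PGC-1αf/f.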
